A study of Mus musculus with 12 samples.

Results

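The 10 genes described here belong to the germline and to meiosis, the cell divisions that halve the chromosome number in germ cells, and were measured in mouse embryonic stem cells (ESCs), which are not germ cells. Aurkc, Hormad2, Stk31 and Ly6k were picked because they were higher in serum ESCs that lack P53, so their serum values are given as a description without a test. Hormad1, Dazl, Mael, Sycp1, Sycp3 and Ddx4 were picked as germline genes controlled by promoter DNA methylation. That is the reason for the choice, and their values in WT serum, given below, show that not all were silent there. All 10 were among the 24881 gene symbols of the deposited expression table, and all 10 passed the filter of a mean of at least 0.5 FPKM over the 8 libraries (a level in sequenced fragments that takes gene length and library size into account).

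RNA-seq was carried out on R1 ESCs that carry the FUCCI reporters, fluorescent proteins that mark cell cycle phases, after sorting of cells in G1 phase. WT ESCs and P53-/- ESCs (P53 KO in the labels and the plots) were each kept in serum medium or in 2i, a medium with inhibitors of MEK and GSK3, and each of the 4 groups had 2 libraries. The P53-/- ESCs were single-cell clones made with CRISPR/Cas9 at a Trp53 exon shared by all isoforms, and clones 1 and 2 were used for RNA-seq. The table does not name the clone behind a column, so libraries 1 and 2 of a group follow the column order, and clone and library cannot be told apart.

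In somatic cells and in ESCs kept in serum, a set of germline genes with CpG-rich promoters is methylated and silent, and a variant Polycomb complex with MGA, MAX, E2F6 and PCGF6 adds to the silencing. In 2i, DNA methylation falls across the genome, and some of these genes become active. P53 is a transcription factor that responds to DNA damage and that ESCs express at high levels. DNA methylation was not measured in the libraries described here.

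Promoter sequence is shown for 4 genes, Aurkc and Stk31, which rose upon P53 loss in 2i, and Dazl and Ddx4, which differed between cultures in opposite directions, since CpG content is the feature by which germline promoters are usually grouped. Each line gives the 250 bases before the RefSeq transcription start on GRCm38.p6, read 5′ to 3′ along the gene's strand, with CpG dinucleotides in capitals. The windows are chr7:6995135-6995384 (plus strand) for Aurkc, chr6:49395289-49395538 (plus) for Stk31, chr17:50293621-50293870 (minus) for Dazl and chr13:112652311-112652560 (minus) for Ddx4.
Aurkc: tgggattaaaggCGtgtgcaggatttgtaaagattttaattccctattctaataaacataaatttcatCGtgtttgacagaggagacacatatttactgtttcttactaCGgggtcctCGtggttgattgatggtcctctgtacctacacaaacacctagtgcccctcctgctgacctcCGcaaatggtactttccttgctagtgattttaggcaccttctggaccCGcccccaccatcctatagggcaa
Stk31: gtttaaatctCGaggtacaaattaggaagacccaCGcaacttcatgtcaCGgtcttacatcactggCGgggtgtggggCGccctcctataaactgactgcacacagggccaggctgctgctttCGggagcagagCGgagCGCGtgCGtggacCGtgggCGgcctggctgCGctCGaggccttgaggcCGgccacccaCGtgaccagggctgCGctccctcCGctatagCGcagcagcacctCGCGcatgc
Dazl: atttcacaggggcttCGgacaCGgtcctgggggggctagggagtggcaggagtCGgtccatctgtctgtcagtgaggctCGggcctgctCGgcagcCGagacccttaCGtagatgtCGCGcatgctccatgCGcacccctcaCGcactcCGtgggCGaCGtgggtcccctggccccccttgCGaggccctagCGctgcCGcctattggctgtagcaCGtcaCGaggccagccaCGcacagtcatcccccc
Ddx4: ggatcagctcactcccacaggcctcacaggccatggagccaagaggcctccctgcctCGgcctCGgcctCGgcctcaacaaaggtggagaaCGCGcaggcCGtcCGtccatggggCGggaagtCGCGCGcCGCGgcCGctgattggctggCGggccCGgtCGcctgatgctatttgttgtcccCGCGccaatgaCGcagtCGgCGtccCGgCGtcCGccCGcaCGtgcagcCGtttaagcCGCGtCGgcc

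CpG density differed widely among these genes. In the window from 250 bases before to 50 bases after the start, Ddx4 had 38 CpGs, more than or as many as 95% of the 32851 RefSeq promoter windows, whose median was 7. Stk31 had 29 in one of its 2 windows and 28 in the other, Dazl had 28, and Hormad1 and Mael had 24 each. Sycp1 had 21, Hormad2 had 16 and Sycp3 had 15. Aurkc had 6, below the median of all windows. Ly6k had no window in the table. The letters CACGTG, an E-box core that reads the same on both strands, stood in the windows of Stk31, Hormad1, Mael, Sycp1, Sycp3 and Ddx4 and in 7.15% of all windows. The letters GCGGGAA, an E2F-type motif searched on both strands, stood in the windows of Hormad1, Sycp3 and Ddx4 and in 4.6% of all windows. A match to the P53 half-site consensus, searched on both strands, was found only in the Aurkc window among the 9 genes with a window, and in 8.36% of all windows. CACGTG and GCGGGAA each hold a CpG, and the windows of these genes that matched had 15 to 38 CpGs. The share over all windows, with a median of 7 CpGs, is thus not a like background for them. These matches describe letters in short windows, and no binding was measured.

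Trp53 itself was lower in each P53-/- library, with 16.8 and 3.68 FPKM against 77.6 and 75.1 in WT serum, and 7.25 and 1.88 against 26.8 and 33.7 in WT 2i. The log2 difference was -3.26 in serum (limma adjusted p = 0.15) and -2.98 in 2i (limma adjusted p = 0.0547). Its transcript was therefore still detected in all 4 P53-/- libraries, at different levels within each pair. The depth estimated from the steps between low FPKM values ran from 5180000 to 13300000 fragments per library. None of the 8 ESC markers was at 0 in a library, and their summed level was 1860 to 2440 FPKM. Of 10 spermatid markers 7 to 9 were at 0 in each library, and Crem, which is not restricted to spermatids, made up nearly all of their sum of 3.35 to 6.41 FPKM. Of 8 fibroblast markers 3 to 5 were at 0, with sums of 1.04 and 1.33 FPKM in P53-/- 2i, 1.79 and 2.1 in WT 2i, 10.7 and 8.99 in P53-/- serum, and 8.36 and 7.98 in WT serum, most of the serum sums from Thy1. The 8 primitive endoderm markers, of which 0 to 2 were at 0, summed to 1.72 and 2.62 FPKM in P53-/- 2i against 6.29 and 3.34 in WT 2i, and to 12.5 and 13 in P53-/- serum against 20 and 20.2 in WT serum, most of the serum sums from Col4a1. The sums were thus lower in P53-/- ESCs in both cultures. Only 2 of the 8 passed the filter, and not each marker was lower, Pdgfra standing at 0.324 and 0.542 FPKM in P53-/- 2i against 0.393 and 0.31 in WT 2i. The part of any such cells in the results below was not tested. In bulk RNA, more cells that express a gene and more RNA per cell cannot be told apart.

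The 10 genes ranged from below 1 FPKM to above 50 FPKM, and they did not follow a common pattern over the 4 groups. Aurkc, Hormad2, Stk31, Hormad1 and Dazl had their highest mean level in a 2i group, Mael, Ddx4, Sycp1 and Sycp3 had their highest mean level in P53-/- serum, and Ly6k had its highest in WT 2i. The values of each gene follow, with libraries 1 and 2 in that order.

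**Figure D1:**
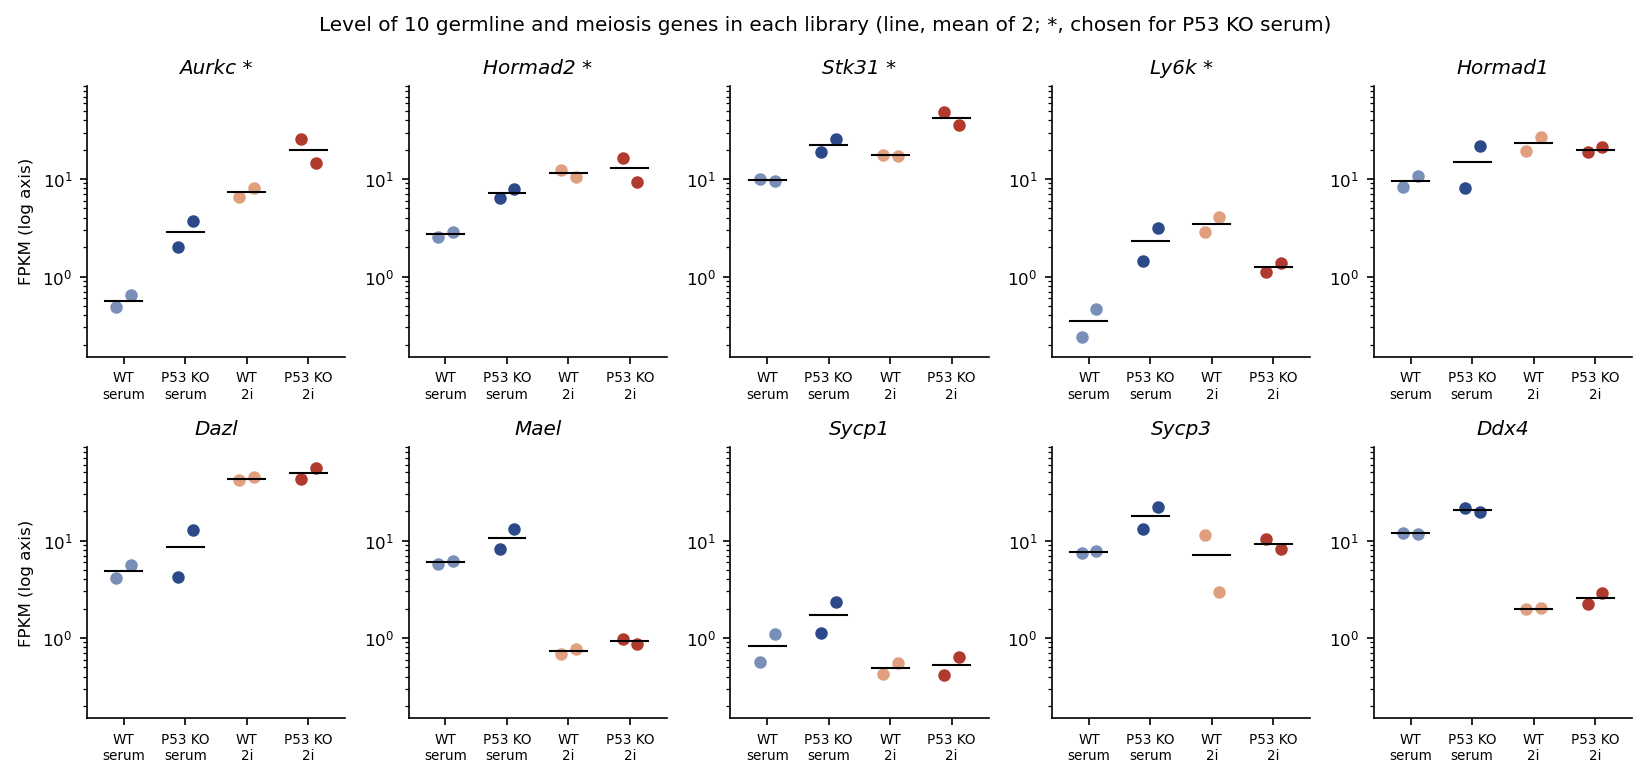
FPKM (log axis) of the 10 genes in the 8 libraries, 1 panel per gene, with a point per library and a bar at the mean of the 2 libraries of a group. Mael and Ddx4 sit lower in both 2i groups than in both serum groups, while Dazl and Aurkc sit higher there.

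Aurkc codes for the Aurora kinase of the chromosomal passenger complex that is found mainly in meiotic cells. It stood at 0.483 and 0.639 FPKM in WT serum, 2.00 and 3.72 in P53-/- serum, 6.5 and 8.12 in WT 2i, then 25.6 and 14.5 in P53-/- 2i. The 4 groups did not overlap, and both serum groups lay below both 2i groups, with WT below P53-/- in each culture. The WT serum values rested on an estimated 9.0 and 6.3 fragments.

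Hormad2 codes for a HORMA domain protein of unsynapsed chromosome axes in meiosis. It stood at 2.55 and 2.89 FPKM in WT serum, 6.41 and 7.92 in P53-/- serum, 12.3 and 10.5 in WT 2i, then 16.4 and 9.32 in P53-/- 2i. The serum groups lay below both 2i groups, and the 2 groups in 2i overlapped.

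Stk31 codes for a kinase-like protein with a Tudor domain that is made in the testis. Levels were 9.93 and 9.55 FPKM in WT serum, 19.07 and 25.8 in P53-/- serum, 17.5 and 17.4 in WT 2i, then 49.0 and 35.7 in P53-/- 2i. P53-/- 2i lay above the other groups. P53-/- serum and WT 2i lay close to each other, 19.07 FPKM in the lower library of the first against 17.5 in the higher of the second, and WT serum lay lowest.

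Ly6k codes for a GPI-anchored protein of the LY6 family needed for sperm function. Its levels were 0.239 and 0.464 FPKM in WT serum, 1.45 and 3.16 in P53-/- serum, 2.88 and 4.08 in WT 2i, then 1.10 and 1.39 in P53-/- 2i. WT serum was lowest, at an estimated 2.5 and 2.6 fragments, P53-/- 2i came next at 8.4 and 5.9 fragments, and WT 2i overlapped with P53-/- serum.

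Hormad1, the paralogue of Hormad2 on meiotic chromosome axes, stood at 8.28 and 10.7 FPKM in WT serum, 8.03 and 21.7 in P53-/- serum, 19.3 and 27.2 in WT 2i, then 19.0 and 21.1 in P53-/- 2i. Dazl, an RNA-binding protein that germ cells need, stood at 4.14 and 5.66 FPKM in WT serum, 4.25 and 12.8 in P53-/- serum, 41.4 and 44.3 in WT 2i, then 43.1 and 55.4 in P53-/- 2i. In both genes P53-/- library 1 in serum lay within or near the WT serum values and library 2 lay above them, and the WT and P53-/- groups overlapped in 2i.

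Ddx4, the germ cell RNA helicase also called VASA, stood at 11.9 and 11.8 FPKM in WT serum, 21.5 and 19.6 in P53-/- serum, 1.97 and 2.01 in WT 2i, then 2.25 and 2.90 in P53-/- 2i. Mael, a protein of the piRNA pathway that silences transposons, stood at 5.73 and 6.17 FPKM in WT serum, 8.16 and 13.1 in P53-/- serum, 0.680 and 0.779 in WT 2i, then 0.983 and 0.871 in P53-/- 2i. Both genes had the reverse order of Dazl between cultures, with P53-/- serum highest, then WT serum, then P53-/- 2i, then WT 2i, and no overlap between any 2 groups. The Mael values in 2i rested on an estimated 9.1 and 6.8 fragments in WT and 16 and 8.0 in P53-/- ESCs.

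Sycp1 and Sycp3 code for the transverse filament and the axial element of the synaptonemal complex. Sycp1 stood at 0.562 and 1.09 FPKM in WT serum, 1.13 and 2.35 in P53-/- serum, 0.432 and 0.551 in WT 2i, then 0.417 and 0.635 in P53-/- 2i. Sycp3 stood at 7.50 and 7.89 FPKM in WT serum, 13.2 and 22.2 in P53-/- serum, 11.4 and 2.98 in WT 2i, then 10.3 and 8.21 in P53-/- 2i. P53-/- serum lay highest for both genes, the 2i groups overlapped with each other, and the 2 libraries of WT 2i stood far apart for Sycp3.

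To ask whether P53 loss changed these genes in a culture that did not choose them, P53-/- 2i was compared with WT 2i. The spread came from 1 fit of all 8 libraries. The serum libraries on which 4 of the genes were chosen thus still entered the test. Stk31 and Aurkc rose and Ly6k fell, while the other 7 genes did not pass the test. Each fold change is on the log2(FPKM + 0.1) scale, which understates changes of low genes, and calls required both a fold over 1.5 and an adjusted p under 0.1 in a limma fit of all 12572 genes tested. Among all genes tested, 4.36% were called higher, 5.97% lower and 10.3% in either direction. Among the 10 genes, 2 were called higher and 1 lower. Marker genes moved with the genotype as well. The 8 ESC markers summed to 1880 and 1860 FPKM in P53-/- 2i against 2440 and 2240 in WT 2i, 0 of the 8 were above 0 upon P53 loss (median log2 difference -0.32), and 1 was called lower, the pluripotency factor Klf4 (-0.96, limma adjusted p = 0.00782). Col4a1, the collagen among the primitive endoderm markers, was called lower too (-2.26, limma adjusted p = 0.0291), though not without P53-/- 2i library 1 or in a fit of the 2i libraries alone. The part of these values in the differences of the 10 genes was not tested.

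Stk31 was higher by 1.26 on the log2 scale (SE 0.19, limma adjusted p = 0.0124), or 2.39-fold, and remained called when any 1 of the 8 libraries was left out. Aurkc was higher by 1.39 (SE 0.36, limma adjusted p = 0.0604), or 2.63-fold. It was not called without P53-/- 2i library 1 (0.99, adjusted p = 0.234), either WT 2i library (adjusted p = 0.187 and 0.113) or either WT serum library (adjusted p = 0.133 and 0.135). Ly6k had a log2 difference of -1.40 (SE 0.43, limma adjusted p = 0.0972), or 2.63-fold lower, opposite to its direction in serum. The Ly6k call was lost without any 1 of the 6 libraries that are not P53-/- serum, with adjusted p from 0.146 to 0.276, though the difference stayed between -1.64 and -1.15. A limma fit of the 2i libraries alone leaves out the serum libraries of the choice. There the adjusted p was 0.107 for Stk31, 0.167 for Aurkc and 0.143 for Ly6k, and none was called.

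Hormad2, which had risen in serum by the choice of genes, differed by 0.12 in 2i (95% interval -0.49 to 0.73, limma adjusted p = 0.832). Of the 6 other genes, Ddx4 differed by 0.34 (95% interval -0.04 to 0.73) and Mael by 0.31 (-0.29 to 0.91), and in both the P53-/- libraries lay above the WT libraries. Sycp3 differed by 0.64 (-0.60 to 1.89), Dazl by 0.19 (-0.82 to 1.2), Sycp1 by 0.07 (-1.06 to 1.19) and Hormad1 by -0.19 (-1.14 to 0.75). The intervals of all 7 include changes of more than 1.5-fold, so none of them was shown to be alike in the 2 genotypes. The P53-/- libraries in 2i lay wholly above WT for 4 of the 10 genes and wholly below for 1, against 29.0% and 24.7% of all genes tested. Leaving out WT 2i library 1 made Sycp3 pass the test (1.59, limma adjusted p = 0.0503), and leaving out library 2 turned its direction (-0.30).

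**Figure D2:**
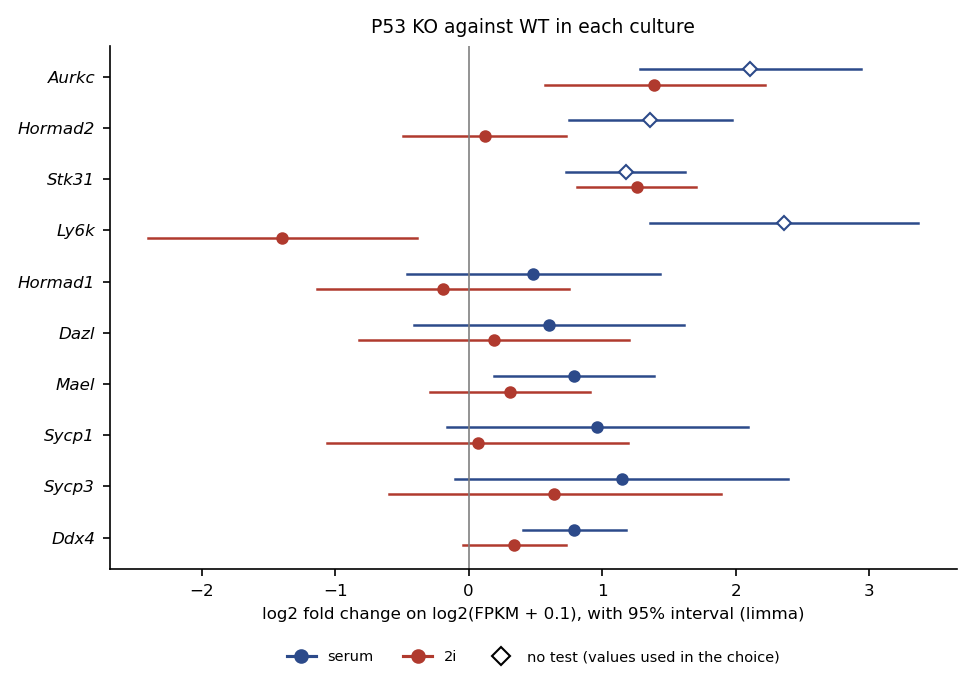
Log2 difference of P53 KO minus WT for the 10 genes in serum and in 2i on log2(FPKM + 0.1), with 95% intervals from limma. Filled symbols carry a test and open symbols, the serum values of the 4 genes chosen on them, carry none; Stk31 and Aurkc lie above 0 in both cultures and Ly6k lies on opposite sides.

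In serum, the 4 genes chosen for their rise differed by 2.36 (Ly6k), 2.11 (Aurkc), 1.36 (Hormad2) and 1.18 (Stk31) on the log2 scale. Their P53-/- libraries lay above their WT libraries by the choice itself, and no test is given. For the 6 other genes each difference was above 0, as it was for 52.6% of all genes tested, but none was called by limma. The median of the 6 was 0.79, against 0.02 over all genes tested, and an unadjusted p under 0.05 was found for Ddx4 and Mael, against 11.3% of all genes tested. The 8 ESC markers summed to 2210 and 2400 FPKM in P53-/- serum against 2330 and 2280 in WT serum, with 3 of 8 above 0, while the lower primitive endoderm sum in P53-/- serum is given above, and its part in these differences was not tested. The share of all genes called in serum was 0.135% higher and 0.883% lower, 1.02% in all.

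Ddx4 was higher by 0.79 in P53-/- serum ESCs (SE 0.17, limma adjusted p = 0.120) and Mael by 0.79 (SE 0.26, limma adjusted p = 0.308). Sycp3 differed by 1.15 (95% interval -0.10 to 2.39), Sycp1 by 0.96 (-0.16 to 2.09), Dazl by 0.60 (-0.41 to 1.61) and Hormad1 by 0.48 (-0.46 to 1.43). For 4 of these 6 genes, Ddx4, Mael, Sycp1 and Sycp3, the 2 genotypes did not overlap in serum, as was so in this direction for 25.7% of all genes tested. Without P53-/- serum library 2, Dazl differed by -0.18 and Hormad1 by -0.23. Without library 1, Dazl differed by 1.38 and was called (limma adjusted p = 0.0995). With a pseudocount of 1, Ddx4 was called (limma adjusted p = 0.0900).

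The 2 libraries of P53-/- serum differed for 9 of these genes by more than the median absolute difference of all genes tested, 0.22 on the log2 scale. Library 2 was above library 1 for 9 of the 10 genes, Ddx4 being the exception, and the median difference was 0.80 on the log2 scale against -0.01 over all genes tested. In the WT groups library 2 was also above library 1 for most of the 10 genes, for 8 in serum (median difference 0.26) and 7 in 2i (0.14), and whether the groups differ in this was not tested. Over all genes tested in P53-/- serum, 48.3% were higher in library 2 and 8.65% were more than 1.5 times higher. The ratio of library 2 to library 1 was 3.01 for Dazl, 2.70 for Hormad1, 2.19 for Ly6k, 2.08 for Sycp1, 1.86 for Aurkc, 1.67 for Sycp3 and 1.61 for Mael. It was 1.35 for Stk31, 1.23 for Hormad2 and 0.911 for Ddx4.

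Library 2 was also the one with less Trp53 transcript (3.68 against 16.8 FPKM). The 12 two-cell-like markers, genes of rare ESCs that resemble the 2-cell embryo, summed to 12.7 FPKM in library 2, with 1 at 0, and to 0.531 in library 1, with 8 at 0. In WT serum they summed to 2.84 and 2.41 FPKM. The part of these values in the difference between the libraries was not tested. In P53-/- 2i, where the same markers summed to 4.95 and 46.6 FPKM and Trp53 stood at 7.25 and 1.88, library 2 was higher for 5 of the 10 genes, and the median difference was 0.0. In WT 2i the markers summed to 6.1 and 15.8 FPKM, and library 2 was higher for 7 of the 10 genes.

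**Figure D3:**
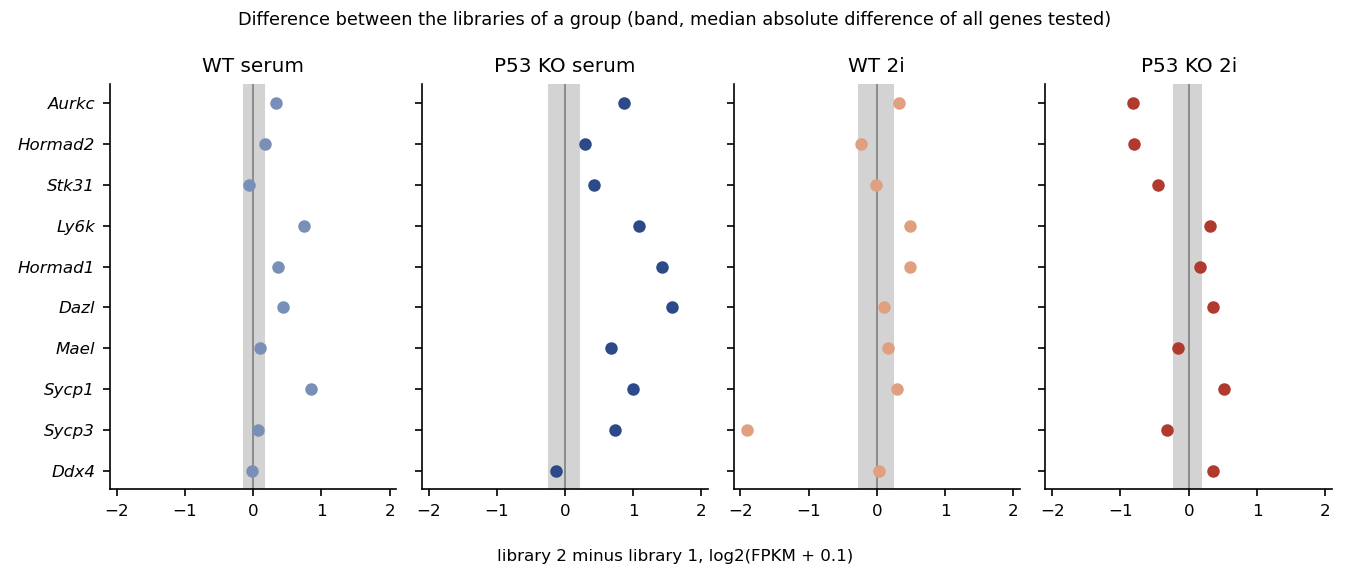
Difference between library 2 and library 1 of each group for the 10 genes, on log2(FPKM + 0.1), with a grey band at the median absolute difference of all genes tested. In P53 KO serum 9 of 10 points lie to the right of 0, most of them beyond the band, and Sycp3 stands far to the left in WT 2i.

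The change of the P53 effect between cultures was tested for the 6 genes not chosen on serum. All 6 were smaller in 2i than in serum, by 0.41 (Dazl) to 0.89 (Sycp1) on the log2 scale, with a median of -0.49 against 0.01 over all genes. Leaving out 1 library turned 3 of them, with Hormad1 at 0.03 and Dazl at 0.38 without P53-/- serum library 2 and Sycp3 at 0.45 without WT 2i library 1. None was called by limma, none had an unadjusted p under 0.05 (as 13.1% of all genes had), and the adjusted p ran from 0.470 (Ddx4) to 0.823 (Dazl). Of all genes tested 0.207% were called, 0.103% with a larger and 0.103% with a smaller effect in 2i. The comparison takes the same WT serum and P53-/- serum libraries as the serum contrast, so it is not a separate observation of their rise in serum. For the 4 genes chosen on serum the 2i effect minus the serum effect was 0.08 for Stk31, -0.71 for Aurkc, -1.24 for Hormad2 and -3.76 for Ly6k, as a description. For Aurkc it was 0.03 with a pseudocount of 1, and for Stk31 it was -0.15 without P53-/- 2i library 1 and -0.14 without P53-/- serum library 1.

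The 2 cultures were compared next. In WT ESCs, Dazl and Hormad1 were higher in 2i, Ddx4 and Mael were lower, and Sycp1 and Sycp3 did not pass the test. Dazl rose by 3.12 (SE 0.44, limma adjusted p = 0.000632), or 8.68-fold, and Hormad1 by 1.27 (SE 0.41, limma adjusted p = 0.0278). Ddx4 fell by 2.51 (SE 0.17, limma adjusted p = 3.3e-05), or 5.70-fold, and Mael fell by 2.87 (SE 0.26, limma adjusted p = 9.1e-05), or 7.31-fold. Of all genes tested, 27.2% were called higher and 28.6% lower between cultures in WT ESCs, so 4 called of 6, 2 in each direction, is near the background of 55.7%.

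Of all genes tested the 2 cultures did not overlap for 40% higher and 41.7% lower in WT ESCs, and for 39.7% and 42.1% in P53-/- ESCs. In P53-/- ESCs the same comparison gave 1 gene higher (Dazl) and 3 lower (Ddx4, Mael and Sycp1), against 28.0% higher and 30.1% lower of all genes tested (58.2% in all). Dazl rose by 2.71 (limma adjusted p = 0.00113), Ddx4 fell by 2.96 (limma adjusted p = 1.9e-05), Mael fell by 3.35 (limma adjusted p = 4.5e-05) and Sycp1 fell by 1.49 (SE 0.49, limma adjusted p = 0.0284). Hormad1 differed by 0.60 (95% interval -0.35 to 1.54) and Sycp3 by -0.89 (-2.13 to 0.35). Sycp3 was called lower in P53-/- ESCs in a fit of only the libraries compared, and Sycp1 in WT ESCs with quantile normalization. The calls of Dazl, Ddx4 and Mael held in both genotypes without any 1 library. Hormad1 lost its call in WT ESCs without WT 2i library 2 (limma adjusted p = 0.140) or WT serum library 1 (0.162), and in P53-/- ESCs it was called without P53-/- serum library 2 (1.31, 0.00811). Sycp1 lost its call in P53-/- ESCs without P53-/- 2i library 1 (limma adjusted p = 0.126) or P53-/- serum library 2 (0.157). Sycp3 was called lower in WT ESCs without WT 2i library 1 (-1.34, limma adjusted p = 0.0139), and in P53-/- ESCs without either WT 2i library (limma adjusted p = 0.0220 and 0.0209).

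The genes chosen on serum share the serum libraries with their choice, so their culture differences are given without a test. In WT ESCs 2i exceeded serum by 3.49 for Aurkc, 3.01 for Ly6k, 2.03 for Hormad2 and 0.84 for Stk31. In P53-/- ESCs the values were 2.78 for Aurkc, 0.91 for Stk31, 0.78 for Hormad2 and -0.75 for Ly6k. The 4 genes thus lay above serum in WT 2i, and Ly6k alone among them lay below serum in P53-/- 2i.

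**Figure D4:**
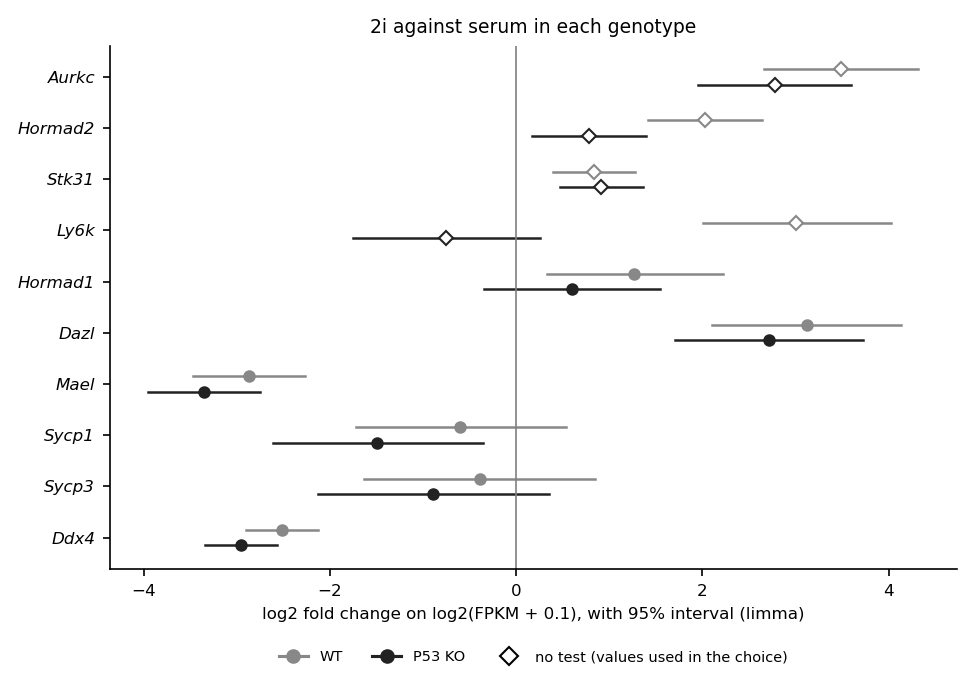
Log2 difference of 2i minus serum for the 10 genes in WT and P53 KO ESCs on log2(FPKM + 0.1), with 95% intervals from limma; open symbols carry no test. Dazl lies well above 0 and Mael and Ddx4 well below 0 in both genotypes, and Ly6k lies on opposite sides of 0.

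Genes of the same pathways were counted from lists that leave out the 10 genes, and some genes, such as Piwil2 and Fkbp6, stand in more than 1 list. Among all genes tested, an unadjusted p under 0.05 was found for 11.3% upon P53 loss in serum and 25.2% in 2i, and the counts of the lists are to be read against these shares and those called. Between cultures the shares called were 55.7% in WT ESCs (27.2% higher, 28.6% lower) and 58.2% in P53-/- ESCs (28.0% and 30.1%), as given above. In a list of 25 other germline genes picked as controlled by promoter methylation, 20 were tested. Some were not silent in WT serum, such as Tuba3a (53.4 and 51.4 FPKM), Tex19.1 (34.0 and 44.4) and Rpl10l (35.5 and 37.0). Others nearly were, such as Asz1 (0.0452 and 0.0855). All 20 were above 0 upon P53 loss in serum, with a median log2 difference of 0.80 against 0.02 over all genes, but limma called none and 6 had an unadjusted p under 0.05. The smallest adjusted p was that of Taf7l, a germ cell transcription factor subunit (1.34, SE 0.29, limma adjusted p = 0.124), picked out after its values were seen. Library 2 of P53-/- serum exceeded library 1 for 15 of the 20, with a median of 0.58. Without that library 15 of the 20 were above 0 and the median was 0.56, and without library 1 the median was 1.23 and 3 were called. In 2i, 9 of the 20 were above 0 (median -0.06) and 1 was called lower, Piwil2, which codes for a PIWI protein that binds piRNAs. The median turned to 0.23 without P53-/- 2i library 1 and to 0.17 without WT 2i library 1, with 12 above 0 in each. Without P53-/- 2i library 2 it was -0.22 (8 above 0), and without WT 2i library 2 it was -0.16 (7 above 0).

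In 2i against serum, 12 of these 20 genes rose and 1 fell in WT ESCs, and 7 rose and 4 fell in P53-/- ESCs. These are 65% and 55% of the 20, against 55.7% and 58.2% of all genes called in either direction. By direction the calls in WT ESCs leaned to higher, since 27.2% of all genes were called higher and 28.6% lower. In P53-/- ESCs these shares of all genes were 28.0% and 30.1%. Of the 12 that rose in WT ESCs, 4 had a mean under 0.5 FPKM in WT serum and had passed the filter through other libraries. In P53-/- ESCs, 2 of the 7 that rose had such a mean in P53-/- serum and 1 of the 4 that fell had one in P53-/- 2i. Fkbp6, a chaperone partner of the piRNA pathway, stood at 120 and 73.7 FPKM in WT 2i against 5.39 and 6.08 in WT serum and rose by 4.02 (limma adjusted p = 2.6e-05). Tex11, a meiotic recombination factor, fell by 0.82 (limma adjusted p = 0.0162), in the direction of Ddx4 and Mael, and was not called without WT serum library 2 (limma adjusted p = 0.132).

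Of the piRNA pathway, to which Mael and Ddx4 belong, 16 other genes were tested. None was called upon P53 loss in serum by limma, 5 had an unadjusted p under 0.05, 12 were above 0 and the median was 0.54. In 2i, 2 fell and none rose. Piwil2 stood at 2.35 and 2.99 FPKM in P53-/- 2i against 5.46 and 5.50 in WT 2i and fell by 1.02 on the log2 scale (limma adjusted p = 0.0381). Gtsf1, a zinc finger partner of PIWI proteins, stood at 2.41 and 2.42 FPKM against 5.02 and 6.98 and fell by 1.26 (limma adjusted p = 0.0451). With 1 library left out, Piwil2 was called in 2 of 8 fits (log2 difference -1.18 to -0.85), both without a P53-/- serum library, and Gtsf1 in 4 of 8 (-1.5 to -1.03), not without either P53-/- 2i library, WT 2i library 2 or WT serum library 2. A fit of the 2i libraries alone called neither. Between cultures in WT ESCs 9 rose and 2 fell, Fkbp6 and Gpat2 (3.56) among those that rose and Tdrkh (-2.48) and Tdrd5 (-1.60) those that fell. Both that fell had a mean under 0.5 FPKM in WT 2i, and 2 of the 9 that rose, Asz1 and Tdrd9, had one in WT serum, so these 4 passed the filter through the libraries where they were high. In P53-/- ESCs 7 rose and 5 fell, of which 1 (Tdrd9) and 2 (Tdrd1 and Tdrd5) passed in the same way.

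Of the meiotic chromosome axis and synaptonemal complex, 11 genes beside Hormad1, Hormad2, Sycp1 and Sycp3 were tested. None was called in serum (2 at an unadjusted p under 0.05, limma), while in 2i 4 rose and 1 fell upon P53 loss, with 9 of 11 above 0 and a median of 0.92. Syce2, of the central element, stood at 118 and 113 FPKM in P53-/- 2i against 60.3 and 61.4 in WT 2i (log2 difference 0.92, limma adjusted p = 0.0202). Stag3, a cohesin subunit, stood at 23.4 and 30.4 against 13.5 and 12.4 (1.04, limma adjusted p = 0.0152). Ccdc36 (1.54, limma adjusted p = 0.0665) and Syce3 (1.48, 0.0995) also rose. Rec8, the meiotic kleisin subunit of cohesin, stood at 9.72 and 8.58 against 27.6 and 24.5 and fell by 1.5 (limma adjusted p = 0.00220). The number called higher was 1 in a fit of the 2i libraries alone and 2 to 4 when 1 library was left out. Syce2 and Rec8 were called in all 8 such fits, Ccdc36 in 4 and Syce3 in 1, without P53-/- 2i library 1. Between cultures 3 rose and 2 fell in WT ESCs and 2 rose in P53-/- ESCs, Rec8 rising in both (2.63 and 1.38).

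Of 12 genes of meiotic recombination none was called in serum (3 at an unadjusted p under 0.05, limma), and Tex15 alone was called in 2i (0.61, limma adjusted p = 0.0769). The Tex15 call was lost without any 1 of the 8 libraries (limma adjusted p up to 0.287), with a pseudocount of 1, without a filter and in a fit of the 2i libraries alone. Between cultures 2 rose and 3 fell in WT ESCs and 3 rose and 3 fell in P53-/- ESCs, Rec114 rising in both (5.22 and 4.01). Of the 3 that fell in each genotype 1, Hfm1, had a mean under 0.5 FPKM in 2i and passed the filter through serum. Of 5 genes of meiotic entry none was called upon P53 loss in either culture (limma, 3 at an unadjusted p under 0.05 in serum and 2 in 2i), while 4 fell in 2i against serum in WT ESCs and 5 in P53-/- ESCs, Meioc by 1.49 and 2.27.

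**Figure D5:**
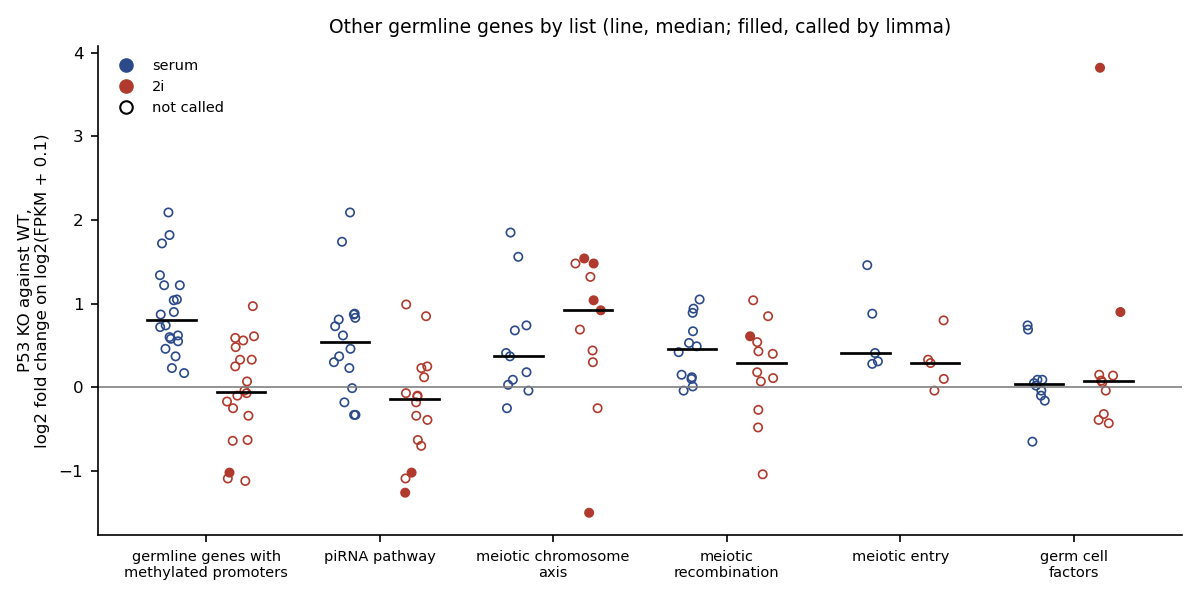
Log2 difference of P53 KO minus WT in serum and in 2i for the genes of each list, without the 10 genes described, with a point per gene, filled where limma called it, and a bar at the median. The 20 germline promoter genes all lie above 0 in serum, and 9 of them do in 2i. With 1 library left out these counts ran from 15 to 20 in serum and from 7 to 12 in 2i.

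Of 10 germ cell factors tested beside Dazl and Ddx4, 2 rose upon P53 loss in 2i. Dppa3, a factor of oocytes and primordial germ cells known to affect DNA methylation, stood at 397 and 446 FPKM in P53-/- 2i against 28.1 and 31.5 in WT 2i, and rose by 3.82 (SE 0.35, limma adjusted p = 0.00158). Kit, a receptor of germ cell precursors, rose by 0.90 (limma adjusted p = 0.0320). Dppa3 was called in all 8 fits with 1 library left out. Kit was not called without P53-/- 2i library 2 or in a fit of the 2i libraries alone. None of the 10 was called in serum by limma, and 1 had an unadjusted p under 0.05. Between cultures 6 rose in WT ESCs and 4 in P53-/- ESCs, Dppa3 in both (3.63 and 6.76).

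Repressors and the methylation machinery were counted in the same way. Of 17 genes of the variant Polycomb complex and its partners none was called upon P53 loss in serum or 2i by limma, with 1 and 5 at an unadjusted p under 0.05. Between cultures 8 fell and 1 rose in WT ESCs and 7 fell and 2 rose in P53-/- ESCs, Max (-1.71 and -2.1) and Mga (-1.10 and -1.09) among those lower in 2i. These were 52.9% of the 17 in each genotype, near the shares of all genes called in either direction. By direction a larger part of them was lower than among all genes, 28.6% in WT ESCs and 30.1% in P53-/- ESCs. Of 12 genes of DNA methylation and demethylation, Dnmt3a, a de novo DNA methyltransferase, rose upon P53 loss in serum, from 13.8 and 14 FPKM to 24.2 and 29.0 (0.92, limma adjusted p = 0.0641). That call held in 1 of the 8 fits with 1 library left out, the fit without WT 2i library 2, and was lost without a filter, with eBayes without trend and in a fit of the serum libraries alone, while the difference stayed between 0.79 and 1.06 with 1 library left out. In 2i Tet2 (-0.92, limma adjusted p = 0.0381) and Zfp57 (-0.87, 0.0204) fell. A fit of the 2i libraries alone called neither, and with 1 library left out Tet2 was called in 3 of 8 fits (-1.26 to -0.58), without WT 2i library 2 or either P53-/- serum library, and Zfp57 in all 8. In 2i against serum 8 fell in WT ESCs and 9 fell and 1 rose in P53-/- ESCs, Dnmt3a (-3.07 and -3.51) and Tet1 (-2.60 and -2.91) among those that fell. These were 66.7% and 83.3% of the 12, against 55.7% and 58.2% of all genes tested. Dnmt3l, a cofactor of DNA methyltransferases, stood at 20.2 and 2.99 FPKM in WT 2i against 60.9 and 60.6 in WT serum and fell with a log2 difference of -2.94, which was -1.58 without WT 2i library 2 and -4.30 without library 1.

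Partners and relatives of Aurkc and Ly6k were counted last. Of 5 other genes of the chromosomal passenger complex and Aurora kinases none was called upon P53 loss in either culture by limma, with 0 and 2 at an unadjusted p under 0.05. Aurkb stood at 13.2 and 8.53 FPKM in P53-/- 2i against 10.1 and 9.98 in WT 2i. Aurka and Cdca8 had an adjusted p under the threshold in 2i (0.0461 and 0.0253) with differences of 0.53 and 0.57, under the fold required. Between cultures in WT ESCs 4 of the 5 fell, while Aurkc was higher there. Of the Ly6 family 22 other genes were measured and 6 of these tested, none was called upon P53 loss in either culture by limma (1 in serum and 0 in 2i at an unadjusted p under 0.05), and 5 rose in 2i against serum in WT and in P53-/- ESCs, Ly6a by 6.42 and 6.36. Of these 5, 1 in WT ESCs (Tex101) and 2 in P53-/- ESCs (Ly6c1 and Tex101) had a mean under 0.5 FPKM in serum and passed the filter through 2i.

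The genes whose levels over the 8 libraries were most like each of the 10 were taken among 11818 genes by Pearson r, a description of 8 points that share culture and genotype. Aurkc was closest to Hddc2 (0.994), Hormad2 to Zmat5 (0.983), Stk31 to Ahcyl2 (0.994), Ly6k to Tfeb (0.946) and Hormad1 to Nlrp4c (0.978). Dazl was closest to Hagh (0.995), Mael to Blm (0.998), Sycp1 to Zfp981 (0.979), Sycp3 to Adgrd1 (0.957) and Ddx4 to Lifr (0.998), with Dnmt3a next for Ddx4 (0.997). Within the 10 genes, r was 0.99 for Mael and Ddx4, 0.95 for Aurkc and Hormad2, and -0.90 for Dazl and Ddx4.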

How the data were processed

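The libraries were made from total RNA of sorted G1-phase ESCs, WT or P53-/-, grown with serum or 2i, with 2 for each of the 4 groups. The authors deposited 1 table of FPKM values per gene symbol. Their processing notes name STAR, Cufflinks, DESeq2 and mm9, and versions, annotation and counting settings are not given in the sources used here. FPKM values are not counts, so no count model was run, and depth was estimated from the steps between low values. Such estimates give counting error no interval. The P53-/- libraries are described as clones 1 and 2. Whether the WT libraries came from separate cultures is not stated, so p-values measure the spread between libraries, which may be technical in WT. The 4 samples of P21-/- ESCs and their WT 2i controls were not analysed here.

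For the tests, log2(FPKM + 0.1) values were fitted with limma 3.58.1 (R 4.3.3) for 12572 genes with a mean of at least 0.5 FPKM, with 1 fit of the 4 groups, eBayes with a trend and Benjamini-Hochberg adjustment over all genes tested. The thresholds, an adjusted p under 0.1 and a fold over 1.5, are those of the study. An exact permutation of 2 against 2 libraries cannot reach 0.05 for a single gene. The fit was first tested on simulated data.

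The 10 genes and the gene lists were chosen with earlier results of these data known. Lists were written by hand. The rule for names took the 10 genes, Trp53, up to 4 called genes of a list with the largest change per contrast, and for each of the 10 genes the 3 most alike by Pearson r, small RNA, Gm and Rik symbols left out. The text names some of these. Gene symbols were matched to GENCODE M21 and RefSeq windows (GRCm38.p6) by name only, since the table has no coordinates and its build is mm9. Alternatives were pseudocounts of 1 and 0.01, no filter, a mean of at least 1 FPKM, median-ratio scaling, quantile normalization, eBayes without trend, a fit of only the libraries compared, and each library left out. Those of the gene lists were chosen after seeing the data. Python 3.11.15 with pandas 2.3.3 and matplotlib 3.10.9 was used for summaries and plots.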

Additional observations from a re-analysis of the deposited data

Results flagged for a closer look

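The P53 effect on Ly6k had opposite directions in the 2 cultures, with each P53-/- library above both WT libraries in serum and below both in 2i. The effect in 2i minus that in serum was -3.76 on the log2(FPKM + 0.1) scale. The difference was not tested, because the serum values had chosen the gene, and it rests on an estimated 2.5 and 2.6 fragments in WT serum and 8.4 and 5.9 in P53-/- 2i. Over the 8 fits that left out 1 library it lay between -4.30 and -3.22, and over the other alternatives between -4.11 and -2.23.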

How the results depend on the processing

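No paired analysis was possible because the columns of the table carry no replicate numbers. Of the values of single genes with a test, recomputed under the alternatives, 490 kept their direction and their side of the threshold, 22 lost and 9 gained a call, and 12 turned direction. Of the values without a test, 232 moved by less than 1 SD and 20 by more.

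In serum, the number of the 6 tested genes called higher upon P53 loss was 1 (Ddx4) with a pseudocount of 1, against 0, and the number of all genes called was 37 in a fit of only the serum libraries, against 128. In 2i, no gene of the 10 was called lower with a pseudocount of 0.01, no filter, a mean of at least 1 FPKM, eBayes without trend, or a fit of only the 2i libraries. That last fit called 193 genes in all, against 1299, and 0 of the 10 higher, against 2. For the change of the P53 effect between cultures, 66 genes were called with a pseudocount of 1 and 40 with eBayes without trend, against 26. The fits of only the libraries compared have fewer residual degrees of freedom, and the other settings keep all libraries. The cause of these differences was not tested.

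With 1 library left out, the lone library of its group is assumed to vary like the other groups. Genes called in serum then numbered 52 to 148, with 0 to 1 of the 6 higher and 0 lower, the lowest without WT serum library 2. In 2i they numbered 491 to 1224, with 1 to 2 of the 10 higher and 0 to 1 lower, the lowest without P53-/- 2i library 2. For the change between cultures they numbered 19 to 69, the highest without WT 2i library 1, with 0 of the 6. For 2i against serum in WT ESCs they numbered 6251 to 7047, with 1 to 2 of the 6 higher and 2 to 3 lower, and in P53-/- ESCs 6893 to 7397, with 1 to 2 higher and 2 to 4 lower.

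Among values with a test, directions turned only when a library was left out, and none of the turned values was called. Of those without a test, the change of the P53 effect between cultures was 0.03 for Aurkc with a pseudocount of 1, against -0.71, and -0.15 for Stk31 without P53-/- 2i library 1 and -0.14 without P53-/- serum library 1, against 0.08. Over these fits the log2 difference upon P53 loss in serum ran from -0.23 to 1.2 for Hormad1 and from -0.18 to 1.38 for Dazl, lowest without P53-/- serum library 2. In 2i it ran from -0.29 to 0.52 for Hormad2 (lowest without P53-/- 2i library 1), -0.19 to 0.32 for Sycp1, with -0.08 without WT 2i library 1 (lowest without P53-/- 2i library 2), -0.44 to 0.05 for Hormad1 and -0.30 to 1.59 for Sycp3 (both turned without WT 2i library 2). The change between cultures ran from -1.45 to 0.45 for Sycp3 (highest without WT 2i library 1), and from -1.39 to 0.03 for Hormad1 and -1.19 to 0.38 for Dazl (highest without P53-/- serum library 2). Between cultures Sycp3 ran from -1.34 to 0.56 in WT ESCs (highest without WT 2i library 2), and Hormad1 from -0.12 to 1.31 in P53-/- ESCs (lowest without P53-/- serum library 1). The depth limits Ly6k, Aurkc in WT serum, and Sycp1 and Mael in 2i, which rest on few fragments. The cause of the turns was not tested.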
